A study of Mus musculus with 32 samples.

Results

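Probes for solute carriers, ion channels and ion pumps were followed on cDNA arrays of mouse prefrontal cortex. A probe belongs to this set where its title on the array contains the words solute carrier, channel, transporter or ATPase. Expressed sequence tags (8 titles) and 5 titles on kinases, receptors, the vesicular inhibitory transporter, the proteasome or ATP synthase were left out. The set holds 38 of 5163 cDNA probes. Of these, 35 carry a title that names 1 gene, for 33 different genes, since the sodium pump subunit Atp1b1 and the mitochondrial carrier Slc25a13 have 2 probes each (called A and B here). The other 3 titles, on a family 23 carrier, a class 5 ATPase and an ATPase-like vacuolar proton channel, could not be tied to 1 gene and stay unnamed. The title of the Slc25a17 probe names that carrier, but its accession is listed in RefSeq (GRCm38.p6) as a synonym of Tspan4, so the identity of this probe is uncertain.

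The mice came from lines bred from HS/Ibg stock for severe (WSP) or mild (WSR) convulsions during ethanol withdrawal, each with 2 independently bred selection replicates. Adults labelled female or male spent 72 h in chambers with ethanol vapor (EtOH) or air (Air) and were sampled at 0 h of withdrawal. Every mouse, controls included, received pyrazole, an inhibitor of alcohol dehydrogenase, at 68.1 mg/kg. EtOH mice were also injected with ethanol, at 1.5 g/kg in WSP-1, WSR-1 and WSR-2 and at a higher dose in WSP-2. Each array carried 33P-labelled cDNA from the pooled RNA of 2 animals. The 8 groups of label, line and treatment each have 4 arrays, apart from Female WSR EtOH, which has 3 because the submitters marked 1 array as excluded, and 31 arrays were used. Arrays are named by selection replicate and pool, so that 2-1 is pool 1 of selection replicate 2. Each array stands for its own pool of animals, and the p-values rest on the spread among these pools. In tissue RNA, fewer cells of a type and less RNA per cell cannot be told apart.

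Solute carriers move sugars, amino acids, nucleosides, fatty acids, ions and transmitters across membranes, often by coupling them to a sodium gradient. P-type ATPases build such gradients: the sodium pump keeps sodium low and potassium high inside a neuron, and calcium pumps clear calcium from the cytosol. The vacuolar ATPase acidifies lysosomes and synaptic vesicles, and the proton gradient it makes drives transmitter into vesicles. Ion channels let ions run down these gradients and set the excitability of neurons.

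The quantity measured is Signal, the brightness of a cDNA spot on a linear scale, and each array has 1 background reading for all its spots. Above background means, throughout, that the Signal of a probe was higher than the reading of its array. This reading ran from 8.25 to 769, and all 16 male arrays lay at the low end, between 8.25 and 41.1. All 7 Female WSR arrays lay between 430.0 and 769, and Female WSP arrays between 10.3 and 283. On the 11 arrays with a reading above 80 (high-background), 4 to 17 of the 38 probes were above background, with a median of 8. On the 20 others (low-background), 11 to 30 were, with a median of 19. Background class therefore moves with the F/M label and, among females, with line. The Y-linked gene Eif2s3y was above background on 14 of 16 male arrays and on 6 of 15 female arrays, so the F/M label is used as a label only. One array, Female WSP EtOH 1-2, has a file header that ends in pool 1. As checks of the tissue, glutamine synthetase, an astrocyte enzyme, was above background on 31 of 31 arrays, and clusterin, also used as an astrocyte marker, on 6. The neuronal vesicle proteins synaptotagmin 4 and synapsin I were above background on 29 and 12, and neuron specific gene family members 2 and 1 on 22 and 8. Of oligodendrocyte titles, proteolipid protein (myelin) reached 22, proteolipid protein 2 reached 12 and myelin protein zero 9. Endoglin, an endothelial marker, reached 15 and the title picked for microglia 2. Of all markers only proteolipid protein (myelin) had an adjusted p below 0.05 in limma, in 1 comparison. Transthyretin, a marker of choroid plexus, and a hemoglobin alpha probe were also above background on 31. Another hemoglobin alpha probe was above background on 5, and the hemoglobin beta probes on 14 and 13.

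Most of the set sat close to background. A member was above background on a median of 12.5 of 31 arrays, against 13 for all cDNA probes. Only 2 of the 38 (5.26%) were above background on every array, against 460 of all probes (8.91%), and 12 (31.6%) on at least 50% of the arrays, against 2031 (39.3%). With the requirement raised to 2 times the background reading, 1 member (254 of all probes) passed on every array and 2 members (665 of all probes) on at least 50%. A probe below background is not shown to be unexpressed. Of the 38 members, 25 had a mean log2 level above the 25th percentile of all probes and were tested, 23 of them with a title that names 1 gene. The values of Slc20a1 (mean 4.22, tested) and Slc30a5 (mean 4.19, not tested) lie just inside and just outside that limit of 4.21.

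**Figure D1:**
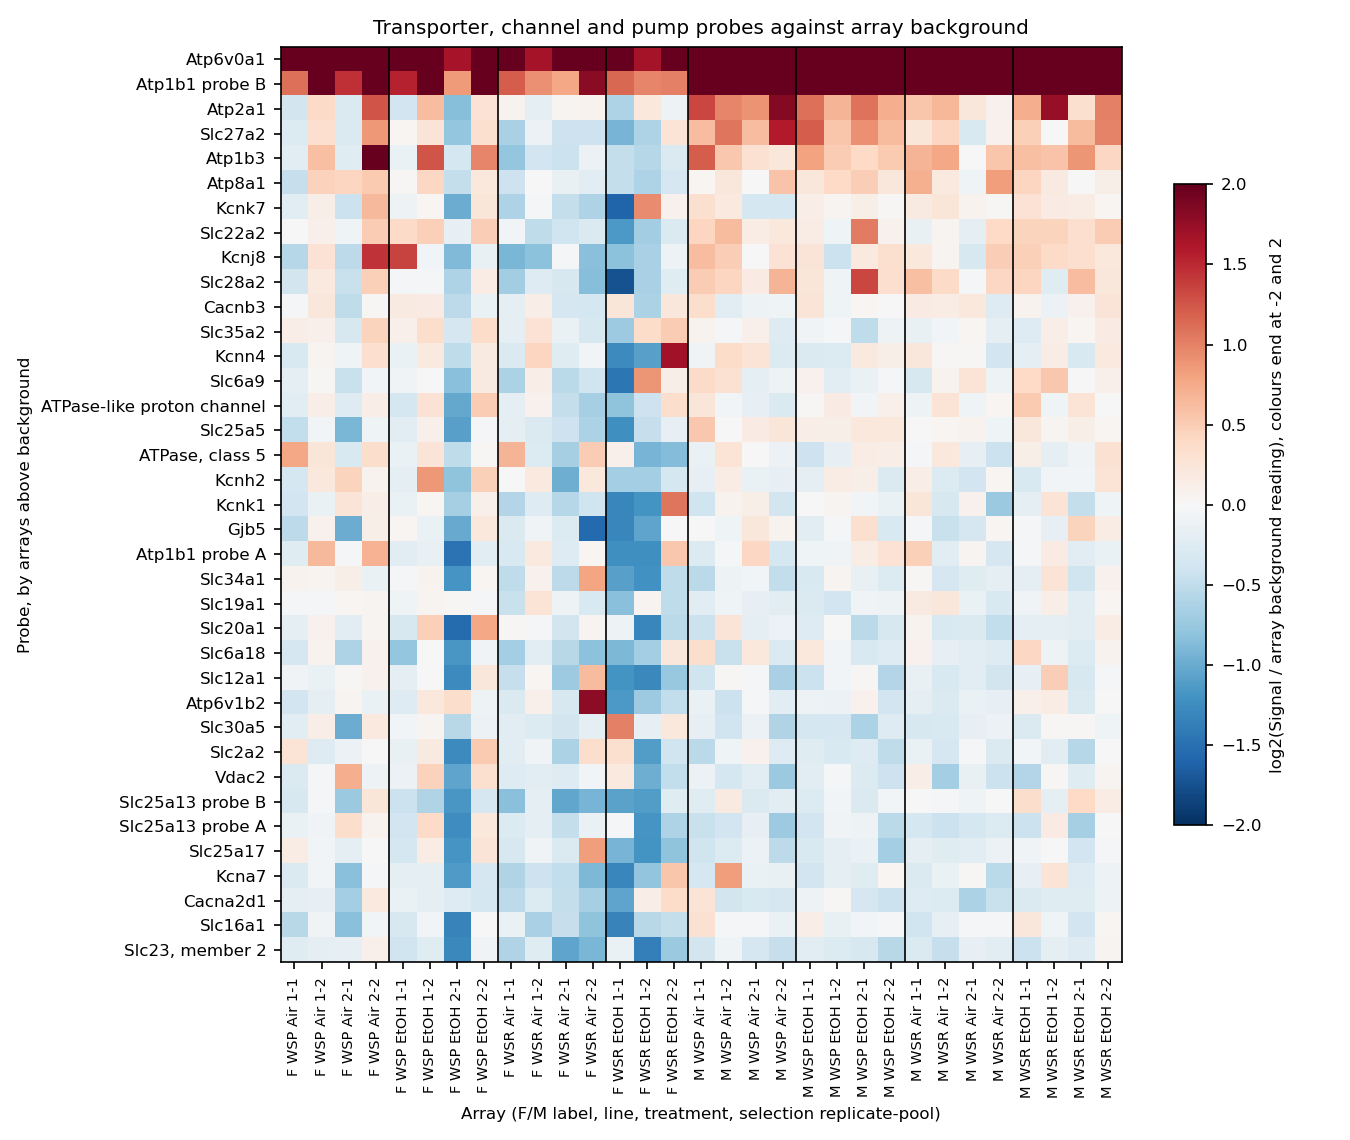
Ratio of Signal to the array's background reading, on a log2 scale, for 37 of the 38 probes (rows, by the number of arrays above background) on the 31 arrays (columns, by group). Red is above background and blue below. Atp6v0a1 and Atp1b1 probe B are red on all 31 arrays, and the Female WSR columns are mostly blue for the other probes.

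The vacuolar ATPase is represented by 3 probes. Atp6v0a1, the membrane-embedded a1 subunit of the vacuolar proton pump that is abundant at nerve terminals, was above background on 31 of 31 arrays, with a ratio of Signal to background from 3.14 to 64.3 (median 24.5). After quantile normalisation, which gives all arrays the same distribution, its log2 Signal hardly varied apart from 1 array given below. With the authors' deposited scores, which are scaled otherwise, it passed in female against male in Air (last section). The Male WSP Air arrays stood at 9.63, 9.80, 9.72 and 9.91, and the Male WSP EtOH arrays at 9.67, 9.72, 9.86 and 9.66. Male WSR Air arrays stood at 9.95, 10.02, 9.82 and 9.74, and Male WSR EtOH arrays at 9.80, 9.94, 9.57 and 9.78. These 4 groups overlap, with the upper 2 Male WSR Air arrays above all other male arrays. The Female WSP arrays lay between 9.72 and 9.96 in Air and between 9.72 and 9.77 after EtOH, and the Female WSR Air arrays between 9.59 and 9.82. Among the 3 Female WSR EtOH arrays the values were 11, 9.72 and 9.54, so that 1 array (1-1) stood above all 30 others. The mean EtOH minus Air difference over the 4 groups was 0.03 ± 0.12 (SE), with a 95% interval from -0.21 to 0.28 and an adjusted p of 0.973 in limma.

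Atp6v1b2, the B2 subunit of the pump's catalytic V1 sector and the form found in brain, was above background on 8 of 31 arrays. In Female WSR Air its arrays stood at 4.80, 5.46, 4.50 and 8.76, and in Female WSP Air at 4.21, 3.13, 4.79 and 3.15. The array at 8.76 (2-2) had a Signal 3.47 times background and stood apart from every other array of the set for this probe, the next being Female WSP EtOH 2-1 at 6.98. The line groups overlap between 4.50 and 4.79. The WSP minus WSR difference in female Air was -2.06 ± 0.67 (adjusted p = 0.0887), and without array 2-2 it was -1.09 (adjusted p = 0.276). It was -1.41 with background class as a term (adjusted p = 0.419) and -1.38 within high-background arrays alone (adjusted p = 0.999). In Female WSR EtOH the arrays stood at 4.19, 4.45 and 3.74, all below the Air arrays of the same group, at an EtOH minus Air difference of -1.75 ± 0.72 (adjusted p = 0.263). Without array 2-2 this became -0.79 (adjusted p = 0.526). No EtOH array of this group was above background, so the fold has only a bound, at least 1.36-fold lower, and without Air array 2-2 that bound is under 1 and no fold can be given. Such bounds set the brighter group's mean against, per array of the dimmer group, its own value or, where that is lower, the dimmest value of any probe above background there. They compare means on these arrays and carry no sampling error. The probe for an ATPase-like vacuolar proton channel was above background on 15 arrays and passed the threshold in no comparison.

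**Figure D2:**
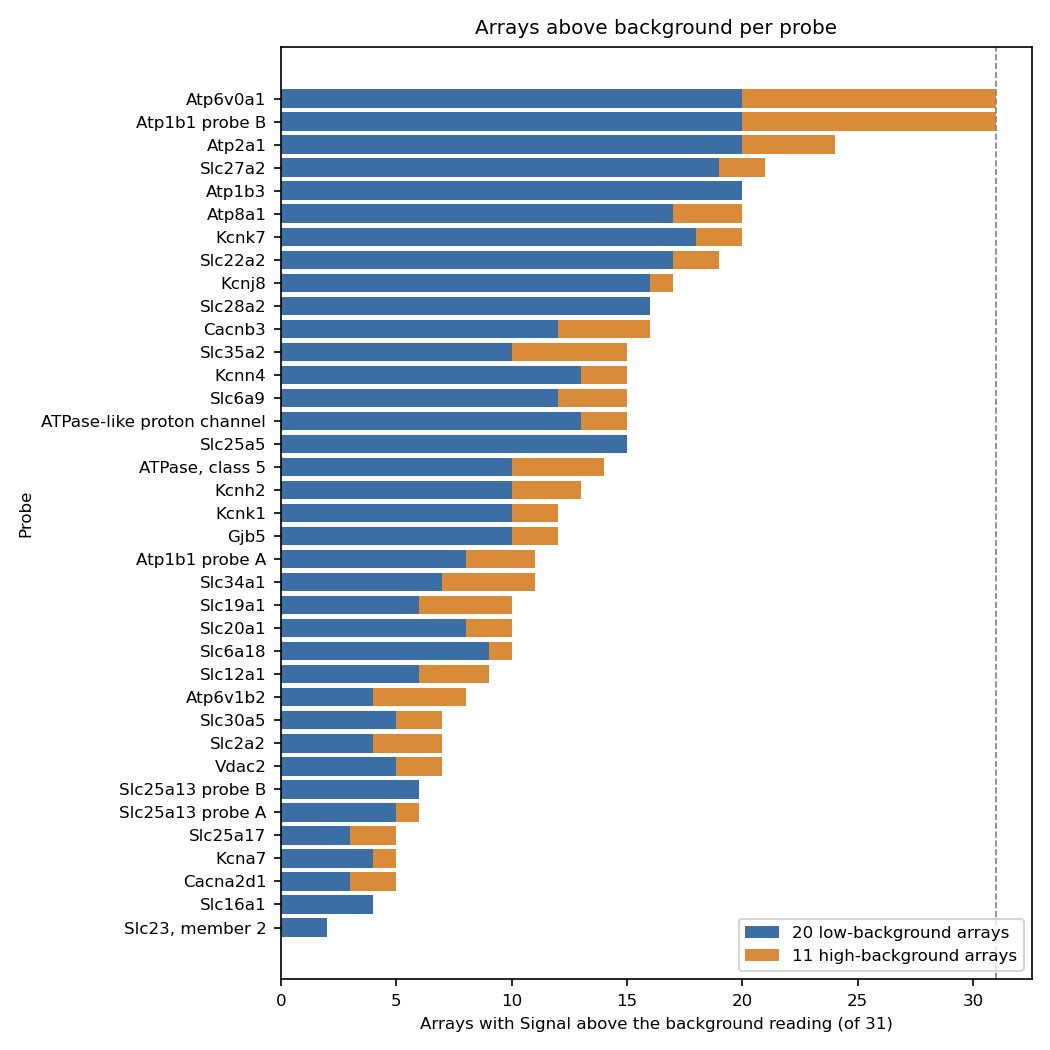
Number of arrays, of 31, on which each of 37 of the 38 probes had a Signal above the background reading, split into 20 low-background arrays (blue) and 11 high-background arrays (orange). Atp6v0a1 and Atp1b1 probe B reach 31, while Atp1b3, Slc28a2 and Slc25a5 are among the probes above background on low-background arrays only.

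The beta subunits of the sodium pump, which the catalytic alpha subunit needs to reach the membrane, are represented by Atp1b1 and Atp1b3. Atp1b1 probe B was above background on 31 of 31 arrays, with ratios from 1.71 to 35.3 (median 13.8). The Male WSP arrays stood at 8.77, 8.86, 8.71 and 8.54 in Air and at 8.59, 8.96, 8.70 and 8.95 after EtOH. The Male WSR arrays stood at 9.20, 8.72, 9.07 and 8.89 in Air and at 8.97, 8.76, 9.14 and 9.06 after EtOH. Treated and control arrays overlap in both lines. In females the spread was wider: Female WSR Air arrays stood at 7.72, 8.74, 6.72 and 8.77, and Female WSR EtOH arrays at 7.32, 8.85 and 7.41. The Female WSP arrays lay between 8.17 and 8.76 in Air and between 8.14 and 8.63 after EtOH. The mean EtOH minus Air difference was -0.03 ± 0.18, with a 95% interval from -0.39 to 0.33 (adjusted p = 0.984).

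The other Atp1b1 probe, A, was above background on only 11 of 31 arrays, with a median ratio of 0.947. It had the smallest unadjusted p of the set for the mean ethanol effect. In Female WSP its Air arrays stood at 4.57, 5.44, 4.65 and 5.02 and its EtOH arrays at 4.04, 3.87, 2.85 and 3.54. The 2 groups do not overlap, and no EtOH array was above background against 2 Air arrays. The difference was -1.35 ± 0.51 (adjusted p = 1.00), with a bound of at least 1.14-fold lower, or 1.01-fold without Air array 1-2. Over the 4 groups it was -0.56 ± 0.26 (adjusted p = 0.858). Probe B of the same gene gave -0.07 ± 0.35 in Female WSP, so the 2 probes of Atp1b1 disagree. Over the 20 low-background arrays the 2 probes had a Pearson correlation of 0.0988 and a Spearman correlation of 0.170 (permutation p = 0.679 and 0.473). Without the 2 arrays farthest from the median the Pearson value was 0.391. Over the 11 high-background arrays the values were -0.158 and -0.182 (permutation p = 0.645 and 0.597), and 0.134 without 2 arrays. Adjusted over the 8 tests of the 2 genes with 2 probes, all 4 of these p-values were 0.679. The Slc25a13 probes gave -0.517 and -0.350 over low-background arrays (permutation p = 0.0219 and 0.129, adjusted 0.175 and 0.518), and -0.343 without 2 arrays. Over high-background arrays they gave 0.253 and 0.273 (permutation p = 0.454 and 0.420, adjusted 0.679 for both), and 0.433 without 2 arrays.

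Atp1b3 was above background on 20 of 31 arrays, 16 of 16 male and 4 of 15 female. These 20 are exactly the low-background arrays. The Male WSP Air arrays stood at 6.13, 5.18, 5.39 and 5.10, and the Male WSR Air arrays at 5.56, 5.79, 4.71 and 5.58. Female WSP Air arrays stood at 4.61, 5.37, 4.42 and 6.58, and Female WSR Air arrays at 3.72, 4.28, 4.23 and 4.98. Males of both lines overlap, and the female groups overlap between 4.42 and 4.98. The WSP minus WSR difference in female Air was 0.95 ± 0.42 (adjusted p = 0.219). Without Female WSP Air 2-2, the array at 6.58, it was 0.50 (adjusted p = 0.663). It was 0.22 within high-background arrays alone (adjusted p = 0.999) and 0.24 with background class as a term (adjusted p = 0.834). In male Air it was 0.04 ± 0.42.

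Atp2a1 encodes the calcium pump of the sarcoplasmic reticulum of fast skeletal muscle, a relative of the pump that fills endoplasmic reticulum calcium stores in neurons. Its probe was above background on 24 of 31 arrays and on 16 of 16 male arrays. The Male WSP Air arrays stood at 6.33, 5.68, 6.5 and 6.92 and the Male WSR Air arrays at 5.38, 5.63, 5.27 and 4.74. All 4 WSP arrays lay above all 4 WSR arrays. After EtOH the male arrays stood at 6.16, 6.15, 6.0 and 6.04 in WSP and at 5.47, 6.84, 5.0 and 6.27 in WSR. There the WSP values sit inside the WSR range. The male line difference was 1.10 ± 0.43 in Air (a fold of 2.14, unadjusted p = 0.0158 and adjusted p = 1.00 in limma). Atp8a1, a flippase that moves phosphatidylserine to the inner leaflet of the membrane, was above background on 20 arrays, and its ratio to background stayed between 0.652 and 1.79. Its male EtOH minus Air differences were -0.56 ± 0.33 in WSR and 0.39 ± 0.33 in WSP (adjusted p = 1.00 for both).

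Potassium channels gave 6 probes, of which 5 were tested. Kcnk7, a member of the two-pore-domain family of background potassium channels, was above background on 20 arrays. Its Female WSR EtOH arrays stood at 3.31, 8.76 and 5.05 and its Female WSR Air arrays at 4.09, 5.01, 4.10 and 4.19. EtOH array 1-2 lay far above all Air arrays, 2-2 just above them and 1-1 below them. The EtOH minus Air difference was 1.36 ± 0.65 (adjusted p = 0.330). No Air array was above background, and the bound on the fold, at least 1.37-fold higher, is under 1 without EtOH array 1-2. Without that array the difference turned to -0.17 (adjusted p = 0.883), and without array 1-1 it was 2.57 (adjusted p = 0.0106). In males of both lines the Kcnk7 arrays lay between 3.52 and 5.11. Kcnj8, the pore subunit of the ATP-sensitive potassium channel of vascular muscle and pericytes, was above background on 17 arrays, 14 of them male. Its Male WSP arrays stood at 5.36, 5.13, 4.58 and 5.19 in Air and at 5.06, 3.49, 4.59 and 5.18 after EtOH, overlapping in all but 1 array. The difference was -0.48 ± 0.61 (adjusted p = 1.00), and -0.12 without EtOH array 1-2.

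The calcium-activated channel Kcnn4, known best in blood cells and epithelia, was above background on 15 arrays. Female WSR EtOH 2-2 stood at 8.99 with a ratio of 3.22 to background, while 1-1 and 1-2 of that group stood at 3.98 and 3.70. The same array was also the highest for Kcnk1, another two-pore-domain channel, with a ratio of 2.10 against at most 1.21 on the 30 others. The spot numbers of Kcnk1 and Kcnn4 are close, so their high values there are not shown to be independent readings. Whether spot position plays a part was not tested. Kcnh2, the ERG channel that repolarises the heart and also sits in neurons, was above background on 13 arrays, and Kcna7, a Shaker-type channel, on 5. Kcna7 was not tested.

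Of voltage-gated calcium channels the array holds accessory subunits. Cacnb3, a cytosolic beta subunit that carries calcium channels to the membrane, was above background on 16 arrays. Its WSP minus WSR difference in Air, averaged over both labels, was -0.43 ± 0.26 (adjusted p = 0.576). Cacna2d1, the alpha2/delta subunit that binds gabapentin, was above background on 5 arrays and was not tested. The gap junction protein Gjb5 reached 12 arrays and the mitochondrial outer membrane channel Vdac2 reached 7.

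The neurotransmitter carriers are Slc6a9, the glial and neuronal glycine transporter GlyT1 that sets glycine at NMDA receptors, and Slc6a18, a transporter of neutral amino acids known from kidney. Slc6a9 was above background on 15 arrays. Its Female WSR EtOH arrays stood at 3.64, 8.67 and 5.11 and its Female WSR Air arrays at 4.07, 5.64, 3.94 and 4.59. As with Kcnk7, array 1-2 lay far above and 1-1 below all Air arrays. The spot numbers of Slc6a9 and Kcnk7 are also near each other, so the shared pattern is not shown to be independent readings. A part of spot position was not tested here either. The EtOH minus Air difference of Slc6a9 was 1.25 ± 0.67 (adjusted p = 0.396). It was -0.18 without array 1-2 (adjusted p = 0.893) and 2.35 without array 1-1 (adjusted p = 0.0394). Slc6a9 in male WSR stood at 3.19, 4.81, 5.39 and 4.34 in Air and at 5.05, 5.35, 4.42 and 4.57 after EtOH, groups that overlap. Slc6a18 was above background on 10 arrays and was not tested.

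Slc27a2, a carrier and acyl-CoA synthetase for very long chain fatty acids, was the solute carrier above background on the most arrays, 21 of 31. The Male WSP Air arrays stood at 5.35, 5.80, 6.03 and 6.61 and the Male WSR Air arrays at 4.87, 5.33, 3.80 and 4.77. All 4 WSP arrays lay above all 4 WSR arrays, though 5.35 and 5.33 almost touch. After EtOH the male arrays stood at 6.29, 5.96, 5.75 and 5.84 in WSP and at 5.15, 4.36, 5.45 and 6.24 in WSR, and they overlap through WSR array 2-2. The male line difference was 1.26 ± 0.36 in Air (a fold of 2.39, unadjusted p = 0.00158 and adjusted p = 1.00 in limma), and 0.66 ± 0.36 after EtOH (adjusted p = 1.00). Over the leave-one-array-out fits the Air value ran from 0.96 to 1.46 and the EtOH value from 0.345 (without Male WSR EtOH 1-2) to 0.965 (without Male WSR EtOH 2-2). The female arrays stood lower, at 4.49, 4.97, 4.37 and 5.20 in Female WSP Air and at 4.01, 4.83, 4.27 and 4.56 in Female WSR Air, where no array was above background. The female line difference was 0.34 ± 0.36.

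Slc22a2, an organic cation transporter that also takes up monoamines, was above background on 19 arrays. Its Female WSP EtOH arrays stood at 5.45, 5.13, 5.59 and 5.19 and its Female WSR EtOH arrays at 4.19, 4.48 and 4.29, without overlap. The WSP minus WSR difference was 1.02 ± 0.35 (adjusted p = 0.177), and no Female WSR array was above background for this probe. In male WSR the arrays stood at 3.83, 4.77, 4.19 and 5.31 in Air and at 5.11, 5.20, 5.01 and 5.48 after EtOH. They overlap through Air array 2-2, and the EtOH minus Air difference was 0.68 ± 0.32 (adjusted p = 1.00), and 0.44 without Air array 1-1. In Female WSP the difference was 0.58 ± 0.32, in Male WSP -0.12 ± 0.32 and in Female WSR -0.28 ± 0.35.

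Slc28a2, the purine nucleoside transporter CNT2 that takes up adenosine, was above background on 16 arrays, all of them low-background. Slc35a2 brings UDP-galactose into the Golgi and was above background on 15. Its Female WSP EtOH arrays stood at 4.80, 4.92, 5.13 and 4.94 and its Female WSR EtOH arrays at 4.80, 7.14 and 6.15, at a WSP minus WSR difference of -1.08 ± 0.47 (adjusted p = 0.306). The WSR arrays 1-2 and 2-2 stood above all WSP arrays and 1-1 did not. Without WSR array 1-2 the difference was -0.53 (adjusted p = 0.659), and without 1-1 it was -1.69 (adjusted p = 0.0396). With the excluded WSR array 2-1 added back it was -1.71 (adjusted p = 0.141 in limma). The phosphate carriers Slc20a1 and Slc34a1 were above background on 10 and 11 arrays, and the reduced folate carrier Slc19a1 on 10. The kidney cotransporter Slc12a1 was above background on 9 arrays, the zinc transporter Slc30a5 and the glucose transporter Slc2a2 on 7 each, and the monocarboxylate transporter Slc16a1 on 4, all male. Of these 7 carriers only Slc20a1 and Slc19a1 were tested. The title of the Slc19a1 probe adds sodium/hydrogen exchanger in brackets, which does not describe this carrier.

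Slc25a5, the ADP/ATP exchanger ANT2 of the inner mitochondrial membrane, was above background on 15 arrays, 14 male and 1 female, all of them low-background. Of the 4 mitochondrial or peroxisomal carrier probes it alone was tested. The Slc25a13 probes, for the aspartate-glutamate carrier citrin, were each above background on 6 arrays, and the probe titled Slc25a17 on 5, all female. These probes had 95% intervals for the mean EtOH minus Air difference that reached or crossed 0, except the Slc25a17 probe at -0.48 ± 0.23, from -0.95 to -0.01, which was not tested.

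**Figure D3:**
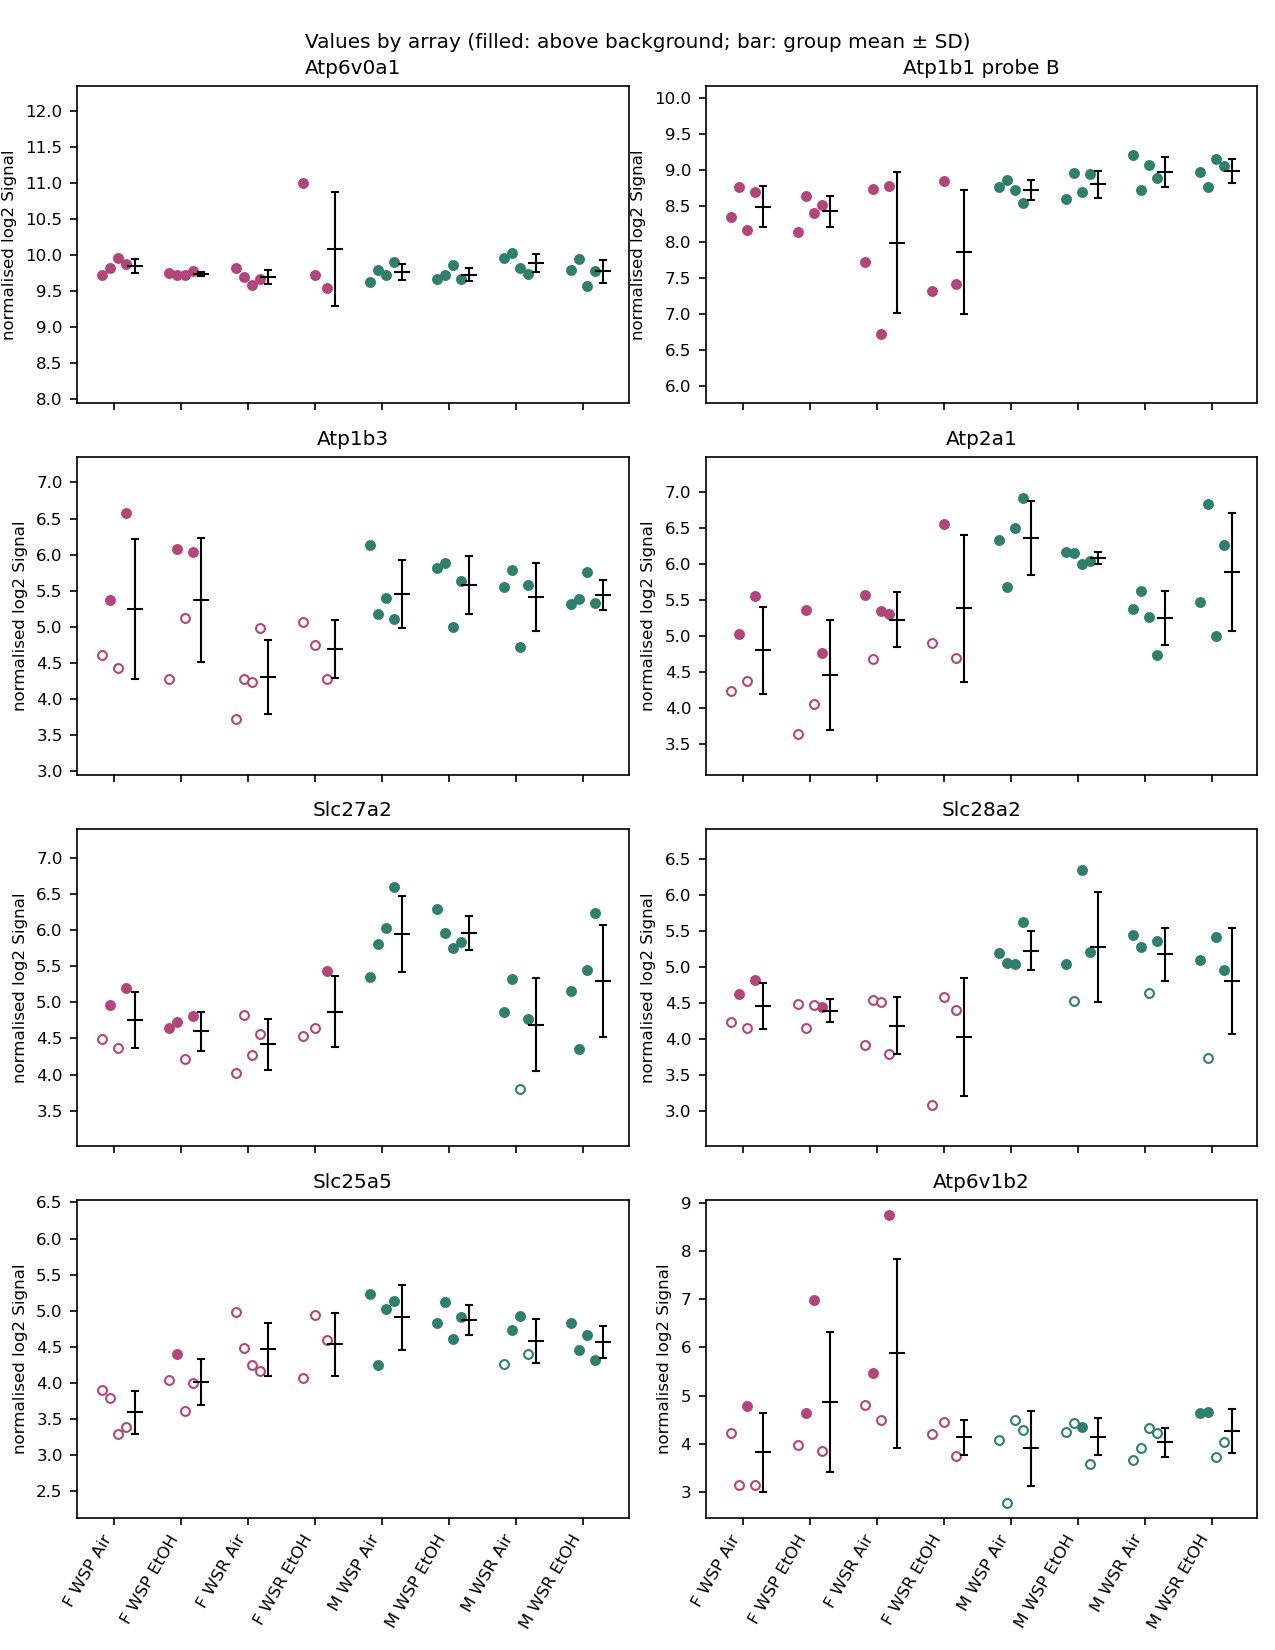
Normalised log2 Signal of 8 members on each array by group (F and M are the labels; filled points are above background, open points below), with the group mean and SD in black. Atp6v0a1 is flat apart from 1 Female WSR EtOH array at 11, Slc27a2 and Atp2a1 are highest in the Male WSP groups, and Atp6v1b2 has 1 Female WSR Air array at 8.76.

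The first comparison asks what 72 h of ethanol vapor did to these transcripts. No member passed the threshold (adjusted p below 0.05 in limma) for EtOH minus Air averaged over the 4 groups, where 0% of the 3872 tested probes passed. At an unadjusted p below 0.05, 1 of 25 members passed (Atp1b1 probe A), or 4%, against 5.22% of all tested probes. The 25 differences ran from -0.56 to 0.38, with a median of 0.04 against 0.01 for all tested probes. Of the 6 P-type pump probes 2 had positive differences, of the 5 potassium channels 3, and of the 6 other solute carriers 3. The members with the smallest p after Atp1b1 probe A were Slc22a2 at 0.22 ± 0.17, Slc27a2 at 0.23 ± 0.18 and Slc6a9 at 0.38 ± 0.32 (adjusted p from 0.867 to 0.878). Without Female WSR EtOH 1-2 the Slc6a9 value was 0.02, and without 1-1 it was 0.65. For Atp2a1 the interval ran from -0.40 to 0.49 and for Slc25a5 from -0.18 to 0.39.

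Within single groups no member passed either. Of all tested probes 0% passed in Female WSP, Male WSP and Male WSR and 0.232% in Female WSR. At an unadjusted p below 0.05, 1 of 25 members passed in Female WSP, 0 in Male WSP, 1 in Male WSR and 2 in Female WSR, against 3.67%, 0.904%, 0.723% and 14.7% of all tested probes. The Female WSP differences ran from -1.35 to 1.04 and those in Female WSR from -1.75 to 1.36, while the male differences lay between -0.48 and 0.40 in WSP and between -0.56 and 0.68 in WSR. The 2 members of Female WSR were Atp6v1b2 and Kcnk7, which are described above with the arrays they rest on, and the phosphate carrier Slc20a1 followed at -1.02 ± 0.57 (adjusted p = 0.417), or -0.54 without EtOH array 1-2. In Female WSP the next were Slc22a2, Atp6v1b2 at 1.04 ± 0.67 and Slc25a5 at 0.42 ± 0.27 (adjusted p = 1.00 for each). The Atp6v1b2 value in Female WSP was 0.33 without EtOH array 2-1. The difference of the EtOH response between lines, over both labels, was 1.40 ± 0.68 for this gene (adjusted p = 0.946), and 0.92 without Female WSR Air 2-2. In that comparison 0 of 25 members and 0% of all probes passed, and 0 members had an unadjusted p below 0.05 against 5.19% of all tested probes. Line and ethanol dose cannot be told apart there for WSP-2, which received the higher dose. The difference of the response between females and males passed in 0 members too (0% of all probes), also with 0 at an unadjusted p below 0.05, against 3.98%. Atp1b1 probe A had the smallest p there, at -0.85 ± 0.52, or -0.53 without Female WSR EtOH 1-2.

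**Figure D4:**
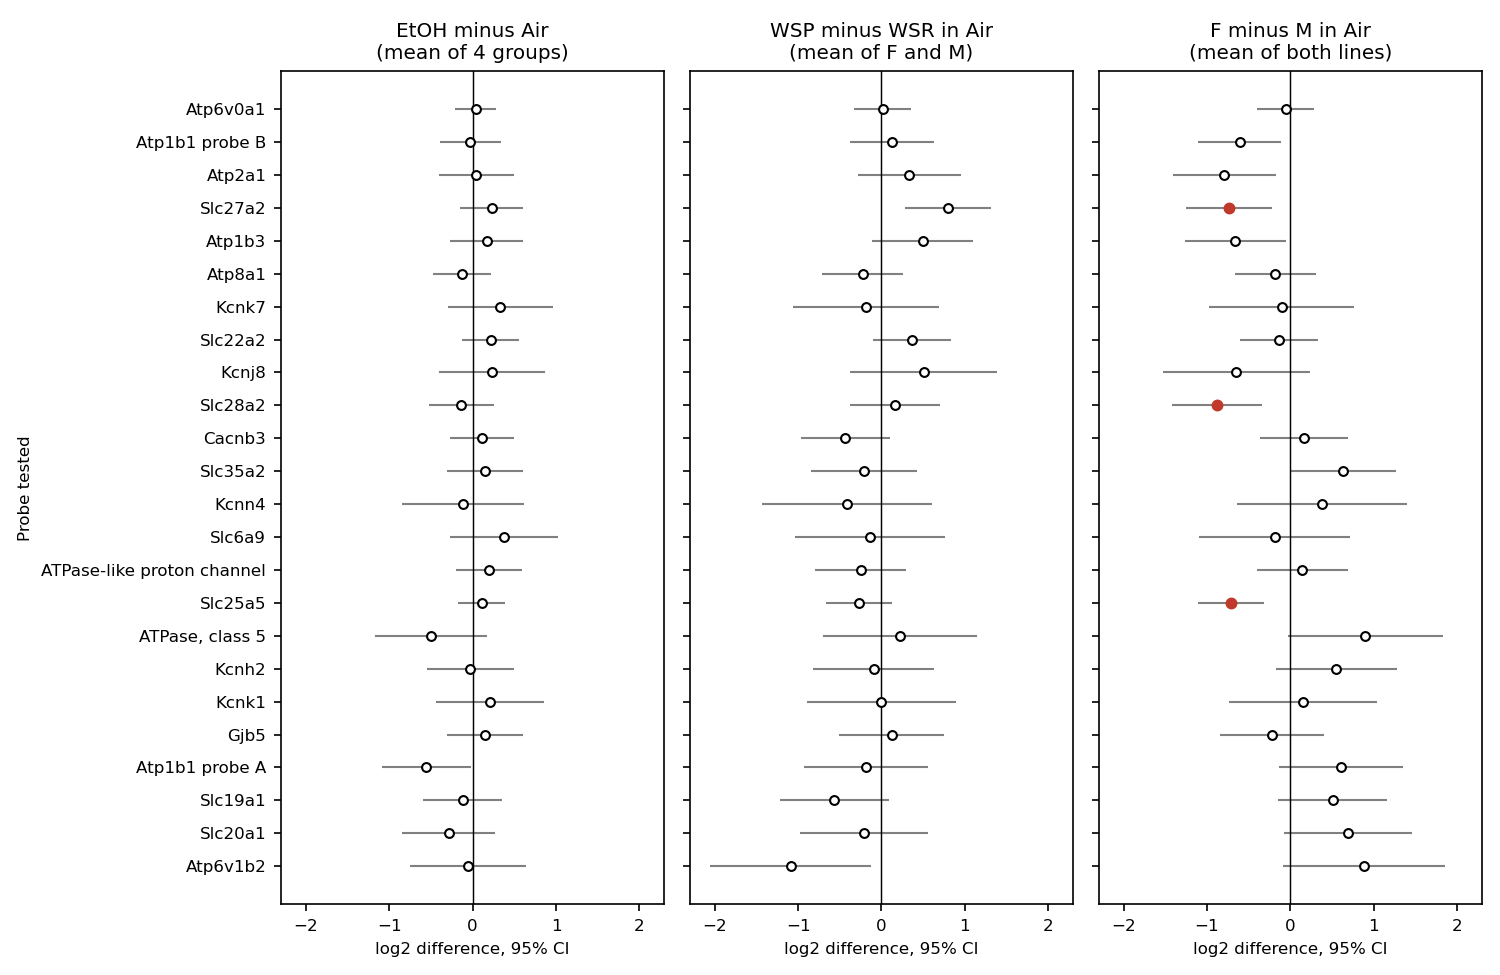
Differences on the log2 scale with 95% intervals for 24 of the 25 tested probes: EtOH minus Air (left), WSP minus WSR in Air (middle) and female minus male in Air (right). Red points have an adjusted p below 0.05. These are Slc27a2, Slc28a2 and Slc25a5 on the right, and there is none in the other panels.

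The second comparison asks how the lines differ. In Air, no member passed in females (3.31% of all tested probes passed), in males (0%) or over both labels (0.232%). At an unadjusted p below 0.05 the counts were 4, 2 and 2 of 25, or 16%, 8% and 8%, against 18%, 2.14% and 10.9% of all tested probes. Each direction of selection rests on 2 bred lines. The p-values count pools as replicates, so they do not measure the spread between independently bred lines. Slc27a2 had the smallest p of the set in males and over both labels, where WSP was higher by 0.80 ± 0.25 (adjusted p = 0.195). In females the smallest p belonged to Slc25a5. Its Female WSP Air arrays stood at 3.90, 3.79, 3.29 and 3.39 and its Female WSR Air arrays at 4.98, 4.48, 4.24 and 4.16, without overlap. None of these 8 arrays was above background, so no fold is given, and the difference was -0.87 ± 0.27 (adjusted p = 0.0727). In males the same gene had a difference of 0.33 ± 0.27.

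After EtOH no member passed in females (0.0517% of all probes) or in males (0%). The WSP-2 mice received the higher ethanol dose, so on their arrays line and dose cannot be told apart here. At an unadjusted p below 0.05 there were 4 members in females (Slc22a2, Slc35a2, Slc6a9 and Kcnk7), or 16% against 13.1% of all tested probes, and 0 in males, against 4.34%. For Slc6a9 and Kcnk7 the differences were -1.51 ± 0.67 and -1.44 ± 0.65 (adjusted p = 0.328 and 0.331). Both rest on Female WSR EtOH arrays: without array 1-1, Kcnk7, Slc6a9 and Slc35a2 passed, and without array 1-2 the Kcnk7 difference was 0.08 and that of Slc6a9 -0.08. In males the smallest p was again that of Slc27a2, followed by Atp8a1 at 0.49 ± 0.33 and Slc28a2 at 0.48 ± 0.37 (adjusted p = 1.00 for both). The Slc28a2 value was 0.12 without Male WSR EtOH 1-2 or Male WSP EtOH 2-1.

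**Figure D5:**
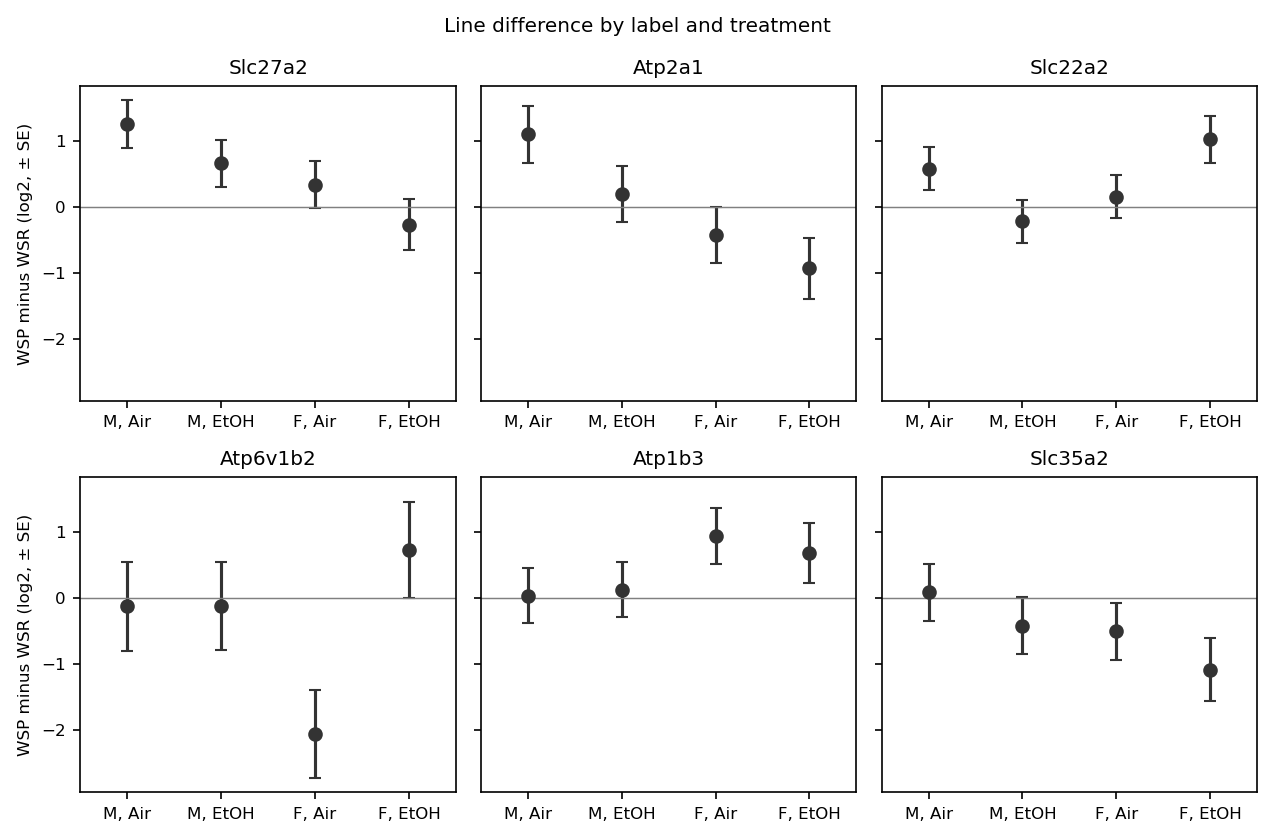
WSP minus WSR difference (log2, with its SE) in males and females, in Air and after EtOH, for 6 members. Slc27a2 lies highest in male Air at 1.26, Atp2a1 at 1.10 in male Air, Slc22a2 at 1.02 in female EtOH and Atp6v1b2 lowest in female Air at -2.06. None of these values passed the threshold.

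The third comparison sets female against male arrays in Air, over both lines. It is the only one in which members passed: 3 of 25 were lower on female arrays, Slc25a5, Slc28a2 and Slc27a2, and none higher. Of all tested probes 15% passed, 449 lower (11.6%) and 133 higher (3.43%), and the share of members that were lower, 3 of 25, is near that background. At an unadjusted p below 0.05, 24% of members and 29.5% of all tested probes passed.

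The Slc25a5 arrays of Male WSP Air stood at 5.23, 4.24, 5.03 and 5.13 and those of Male WSR Air at 4.26, 4.73, 4.92 and 4.40. Set against the female values above, all WSP males lay above all WSP females, whereas in WSR the ranges overlap. No female Air array was above background against 6 of 8 male ones, and the bound on the fold came to under 1, so none is given. The difference was -0.71 ± 0.19 (adjusted p = 0.0129), with 7 of 8 female arrays below the male mean. For Slc28a2 the Female WSP Air arrays stood at 4.24, 4.63, 4.15 and 4.83 and the Female WSR Air arrays at 3.91, 4.54, 4.51 and 3.79. The Male WSP Air arrays stood at 5.19, 5.05, 5.05 and 5.62 and the Male WSR Air arrays at 5.44, 5.28, 4.63 and 5.36. Only the male WSR array 2-1 at 4.63 reached into the female range. The difference was -0.88 ± 0.26 (adjusted p = 0.0244), with 8 of 8 female arrays below the male mean. Only 2 of the 8 female arrays were above background, against 7 of 8 male ones, so no fold is given. For Slc27a2 the difference was -0.73 ± 0.25 (adjusted p = 0.0498), also with 8 of 8 below the male mean, and its female values overlap those of male WSR. Here too 2 female and 7 male arrays were above background.

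Array background was unevenly spread over the labels. All 8 male Air arrays and 2 of the 8 female Air arrays were low-background. With background class as a term the differences were -0.58 for Slc25a5, -0.74 for Slc28a2 and -0.36 for Slc27a2 (adjusted p = 0.569, 0.601 and 0.788), and no member passed. Within WSP alone the 3 differences were -1.31, -0.77 and -1.19 and within WSR alone -0.11, -0.99 and -0.27, with none past the threshold in either. Among the low-background WSP arrays they were -1.32, -0.50 and -0.86 (adjusted p from 0.300 to 0.789). Each of these fits has fewer arrays or a further term, and what part background has in the difference was not tested beyond them. Leaving out 1 array at a time, Slc25a5 passed in 16 of 16 fits. Slc28a2 missed in 4, without Female WSP Air 1-1 or 2-1, Male WSP Air 2-2 or Male WSR Air 1-1, and Slc27a2 missed in 11 with an adjusted p of up to 0.115.

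Atp2a1, Atp1b1 probe B and Atp1b3 followed, with -0.79 ± 0.30, -0.61 ± 0.24 and -0.66 ± 0.30 (adjusted p = 0.0753, 0.0910 and 0.133). For Atp2a1 all 8 female Air arrays lay below the male mean, the 4 Female WSP Air arrays at 4.24, 5.04, 4.38 and 5.55 and the 4 Female WSR Air arrays at 5.57, 4.69, 5.35 and 5.31. The female WSR values overlap those of male WSR, and the difference was -0.03 within WSR and -1.55 within WSP. With background class as a term it was 0.03. In the other direction the class 5 ATPase probe and Atp6v1b2 had 0.90 ± 0.45 and 0.88 ± 0.47 (adjusted p = 0.182 and 0.215). Among members that were not tested, Slc25a13 probe A stood 1.16 ± 0.35 higher on female arrays and probe B of the same gene 0.43 ± 0.26 lower. Without a filter on dim probes, Slc25a13 probe A and the probe titled Slc25a17 passed as well, and Slc27a2 did not.

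Further probes outside the set were picked by words in their titles, and not all of them are for transport genes. These 13 probes include ABC transporters, calmodulin, an aquaporin and calsequestrin. They also include ankyrin 1, calcium/calmodulin-dependent protein kinase IV and an ankyrin-containing protein associated with regulatory factor X. Of the 13 probes, 10 were tested. None passed in any comparison except female against male in Air. There 1 of 10, calmodulin, was lower, a share near the 11.6% of all tested probes that were lower. The ABC transporter title sub-family G member 1 was above background on 29 of 31 arrays and calmodulin on 25.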

How the data were processed

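RNA of 31 array samples was compared. The deposited scanner files hold Signal, a linear intensity per spot, and 1 Background intensity per array, per the file headers. The quantification software is not given in the sources used here. The series' value table holds a score per spot that the authors deposited with no stated scale. These scores matched log2 Signal scaled per array to mean 8 and SD 2, with spots not above background left blank, and they served as an alternative. Column medians of this table ran from 7.35 to 11.2, and the direction is that of Signal.

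Signal was background-corrected with limma 3.58.1 (R 4.3.3) normexp, with an offset of 50 where the array median was at least 500 and 0.1 of the median otherwise. The 192 control spots were dropped, arrays were quantile normalised, log2 was taken, and the 3872 probes with a mean above the 25th percentile were fitted with 1 mean per group (23 residual degrees of freedom). Benjamini-Hochberg adjustment ran over all tested probes in each of 13 contrasts. Array number limits the precision. Selection replicates were collapsed, as the series' design text states. Whether selection replicate and pool numbers pair arrays was checked on residuals. Air and EtOH arrays of the same selection replicate correlated at a mean of -0.01 and of the other at 0.02, so the numbers do not pair the arrays by their values.

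Members and gene lists were chosen with earlier results of these data known. Named were members with a 1-gene title that passed in any contrast, the 4 with the smallest p per contrast, the 12 above background on the most arrays, and the 3 most often above background in each role. Other members were named after their values were seen. Symbols follow array titles and were matched to RefSeq synonyms. Probe sequences were not used here, and 1 member is not reported here.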

Additional observations from a re-analysis of the deposited data

Results flagged for a closer look

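In 4 groups 1 array stood apart from the 3 others for a member named above, by the gap to the nearest value relative to the group's range. This was tested in 84 groups of 4 arrays over 12 members, where chance flags about 5% of groups, and the 4 flagged groups are near that share. Kcnj8 stood at 7.72 on Female WSP EtOH 1-1, with a Signal 2.56 times background, against 3.74 to 4.09 on the others. Kcnk7 stood at 5.01 on Female WSR Air 1-2, against 4.09 to 4.19, and was below background on all 4. Atp1b3 stood at 5.75 on Male WSR EtOH 2-1, against 5.31 to 5.39. On the low side Slc28a2 stood at 4.16 on Female WSP EtOH 1-2, against 4.45 to 4.49.

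Female WSR EtOH 2-1 is the array that the submitters excluded. There 2 of the 12 members had a higher ratio of Signal to background than on every other Female WSR array, Air or EtOH. For Atp1b1 probe B the ratio was 3.63, against 1.71 to 3.49, and for Atp8a1 it was 1.28, against 0.652 to 1.01. Slc35a2, which is not among these 12, had a ratio of 4.29 there, against 0.607 to 1.42 on the other Female WSR arrays.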

How the results depend on the processing

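Members past the threshold in female against male in Air numbered 1 with cyclic loess (Slc25a5), 1 with each array scaled to mean 8 and SD 2 (Atp1b1 probe B), 0 with background class as a term, and 0 within WSP, within WSR and within low-background WSP arrays. They numbered 4 with median scaling, and 2 with the deposited value table (Atp1b1 probe B and Atp6v0a1, of 4 members with enough values). For WSP against WSR in female Air there was 1 with median scaling (Atp6v1b2) and 2 with array weights (with Atp1b3), and over both labels 1 with array weights (Atp6v1b2). With the mean 8 and SD 2 scaling, Slc30a5 passed in Female WSR EtOH against Air (1) and in WSP against WSR after EtOH in females (1). Leaving out 1 array moved the counts between 1 and 6 in female against male (6 without Female WSP Air 2-2), 0 and 1 in female Air by line, 0 and 2 in Female WSR EtOH against Air and 0 and 3 by line in EtOH females. Signs turned for Atp2a1 in female against male with the class term (0.034). They also turned without Female WSR EtOH 1-2. Leaving out 1 array, Kcnk7 ran from -0.17 to 2.57 and Slc6a9 from -0.18 to 2.35 for EtOH against Air in Female WSR. Slc6a9 ran from -0.030 to 1.24 in the response by label, and Kcnk7 from -2.65 to 0.082 by line in EtOH females. The cause was not tested. With selection replicate as a replicate block 2 members passed in female against male in Air, and 3 with selection replicate and pool as a replicate block, and 0 elsewhere. The mean 8 and SD 2 scaling, a block by selection replicate within line, the single-line fits and leaving out both Female WSP-1 EtOH arrays were chosen after seeing the data. Arrays near background limit most members.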
